A study of Mus musculus with 4 samples.

Results

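Molecular chaperones of the heat shock and endoplasmic reticulum (ER) folding systems were followed in leukaemic mouse spleen cells exposed to R848 or to vehicle. Members were rows of the expression table picked by gene name. The name starts used were those of HSP70, HSP90, HSP110, small heat shock, Hspd, Hspe and J protein genes, disulfide isomerases (Pdia) and Sec61 subunits. Calr, Canx, Hyou1, Sdf2l1, Manf and Creld2 were added by full name. The pseudogene Hspe1-ps5 and Hspbap1 entered through their name starts. Of 97 rows with such names, 73 averaged 1 FPKM or more across the 4 samples and were kept, out of 28192 rows in the table and 12612 genes that reached that level. By the compartment in which each product is known to work, 28 members were placed in the ER, 26 in the cytosol or nucleus and 9 in mitochondria, and 10 were left without one of these compartments. The 24 rows below the limit included 7 that were 0 in every sample. Dnajb5 (mean 1.06 FPKM) and Hspa12b (1.33 FPKM) lay just inside the limit, and Hspb9 (0.991 FPKM) and Hspa1l (0.843 FPKM) just outside it. Hspa1a (1.70 FPKM) and Hspa1b (3.95 FPKM) passed it only through 1 control sample, and Dnajb5 only through its R848 samples.

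The R848 group was 2 samples given 10 µg/ml R848 (resiquimod), a synthetic imidazoquinoline that activates the Toll-like receptors TLR7 and TLR8. The control group was 2 samples given the same volume of vehicle. Both treatments lasted 3 days, and each used cells of mouse 4050 and of mouse 4182, so each R848 sample has a control from its own animal. All 4 samples came from Dnmt3a fl/fl, Flt3 ITD/ITD, Mx1-Cre leukaemias, although the protocols also write the Dnmt3a genotype as +/-. The Mx1 promoter that drives Cre is itself inducible by interferon. The cells were whole spleen cells after red cell lysis, frozen, thawed and cultured with SCF, IL6 and IL3, and the labels name no sort for leukaemic cells.

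Chaperones bind unfolded protein and release it with the help of ATP and of partner proteins. In the cytosol HSP70 takes clients from J proteins and passes some of them to HSP90, and heat shock factor HSF1 induces many of these genes when proteins unfold. In the ER, secreted and membrane proteins enter through the Sec61 channel and fold with Hspa5 (BiP), Hsp90b1, the lectins calnexin and calreticulin and the disulfide isomerases. The unfolded protein response raises this second group through the factors ATF6 and XBP1. Antibody-secreting cells and activated macrophages are known for a large ER folding load.

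Promoters of many such genes carry short elements that these factors bind. The 6 windows shown were chosen after seeing the values, among members that hold such an element, because their genes are described in detail in the results. The ER carriers with smaller log2 differences, R848 minus control, are not shown. These were Hsp90b1 (0.03), Canx (-0.03), Pdia6 (0.06) and Dnajc3 (0.16). Windows from 250 bases before to 50 bases after each start were taken from RefSeq on GRCm38.p6, and 58 of the 73 members had one. Members without a window, and so not searched for elements, included Hspa8, Hsp90aa1, Hsp90ab1, Hyou1, Manf and Sec61a1. In the first 4 windows the capitals mark an ER stress element, which is either CCAAT and CCACG with 9 bases between them or, in Dnajb11, ATTGG and CCACG with 1 base between them. The Hspa5 and Dnajb11 windows show these letters directly, while in Creld2 and Calr the match is on the other strand and the capitals show its reverse complement. In the last 2 windows the capitals mark the heat shock element GAANNTTC. The windows are at chr2:34771840-34772139 (plus strand, Hspa5), chr15:88819396-88819695 (plus strand, Creld2), chr16:22857595-22857894 (plus strand, Dnajb11), chr8:84846882-84847181 (minus strand, Calr), chr17:34972107-34972406 (minus strand, Hspa1a) and chr17:34959189-34959488 (minus strand, Hspa1b).
Hspa5: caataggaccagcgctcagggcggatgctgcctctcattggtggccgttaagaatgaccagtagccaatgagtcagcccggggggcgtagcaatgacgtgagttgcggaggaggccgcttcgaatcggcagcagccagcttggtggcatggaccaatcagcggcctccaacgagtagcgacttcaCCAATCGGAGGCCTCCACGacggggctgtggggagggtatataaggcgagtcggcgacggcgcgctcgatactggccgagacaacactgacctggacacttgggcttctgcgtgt
Creld2: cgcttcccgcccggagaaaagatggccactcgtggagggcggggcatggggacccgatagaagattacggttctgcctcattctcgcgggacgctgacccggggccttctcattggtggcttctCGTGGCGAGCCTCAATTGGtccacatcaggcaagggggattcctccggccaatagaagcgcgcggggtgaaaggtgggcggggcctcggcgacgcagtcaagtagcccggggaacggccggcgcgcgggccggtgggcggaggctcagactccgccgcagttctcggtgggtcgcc
Dnajb11: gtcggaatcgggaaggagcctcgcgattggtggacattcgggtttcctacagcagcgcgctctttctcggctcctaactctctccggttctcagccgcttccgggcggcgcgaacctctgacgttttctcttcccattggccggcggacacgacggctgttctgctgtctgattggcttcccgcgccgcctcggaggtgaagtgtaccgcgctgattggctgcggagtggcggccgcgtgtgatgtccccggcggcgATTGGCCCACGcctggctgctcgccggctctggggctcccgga
Calr: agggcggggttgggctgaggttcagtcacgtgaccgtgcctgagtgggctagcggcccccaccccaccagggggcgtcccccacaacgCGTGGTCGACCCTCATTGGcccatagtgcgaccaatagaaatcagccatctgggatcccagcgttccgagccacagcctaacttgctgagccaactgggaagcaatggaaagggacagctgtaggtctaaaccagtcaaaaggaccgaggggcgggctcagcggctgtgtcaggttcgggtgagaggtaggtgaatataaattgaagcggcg
Hspa1a: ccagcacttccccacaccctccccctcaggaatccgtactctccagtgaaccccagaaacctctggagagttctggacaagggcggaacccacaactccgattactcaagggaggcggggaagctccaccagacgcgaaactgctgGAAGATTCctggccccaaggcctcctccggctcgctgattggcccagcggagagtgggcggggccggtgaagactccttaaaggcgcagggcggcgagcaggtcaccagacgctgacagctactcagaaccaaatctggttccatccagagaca
Hspa1b: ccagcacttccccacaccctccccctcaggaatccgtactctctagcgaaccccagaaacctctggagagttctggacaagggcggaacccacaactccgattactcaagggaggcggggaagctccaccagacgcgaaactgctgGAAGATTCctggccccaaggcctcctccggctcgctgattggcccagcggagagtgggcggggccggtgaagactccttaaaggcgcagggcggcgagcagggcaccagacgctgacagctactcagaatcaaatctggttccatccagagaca
The ER stress element of Hspa5 began 65 bases before the start, that of Creld2 126 bases before it and that of Calr 162 bases before it, while the Dnajb11 match lay just after the start. The windows of Hspa1a and Hspa1b were identical at 296 of 300 positions, and the heat shock element began 104 bases before the start in both.

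Both strands of every window were searched for 4 motifs. An ER stress element of either form was present for 8 of 23 ER members with a window (34.8%) and for 0 of 22 cytosolic members, against 49 of 27025 genes in the promoter table (0.181%). The 8 genes were Calr, Canx, Creld2, Dnajb11, Dnajc3, Hsp90b1, Hspa5 and Pdia6, all of which act in the ER lumen or face it. Their median log2 difference, R848 minus control, was 0.23. It was 0.19 for the 7 lumenal folding members with a window but no such element, Sdf2l1 (0.48) among them. A link between element and change was not tested. The heat shock element was found for 6 of 22 cytosolic members (27.3%), 2 of 6 mitochondrial members and 1 of 23 ER members, against 9.04% of all genes. Its cytosolic carriers were Dnaja1, Dnajb6, Hspa1a, Hspa1b, Hspb6 and Hsph1, and the mitochondrial ones were Hspd1 and Hspe1. The unfolded protein response element TGACGTGG, whose complement shares the letters CCACG with the ER stress elements, occurred for Dnajc25 among the members and for 0.714% of all genes. These are matches of letters and not shown binding sites.

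**Figure D1:**
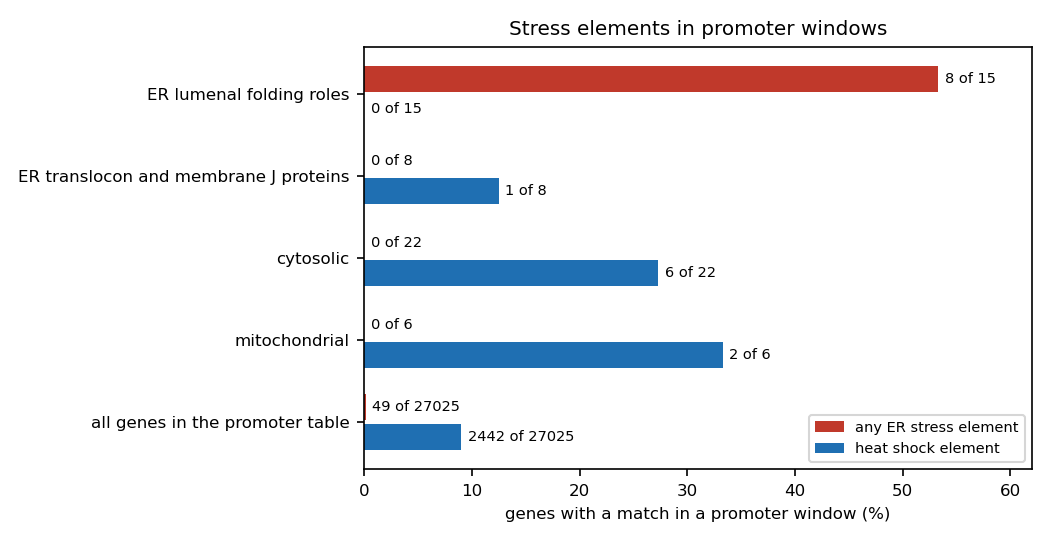
Share of genes (%) with an ER stress element (red) or a heat shock element (blue) in a promoter window, for 4 groups of members and for all genes in the table, with counts beside the bars. The ER stress element was present for 8 of 15 members that fold proteins in the ER lumen, and for 49 of 27025 genes overall.

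With R848 the chaperones as a whole differed little from control, and 0 of the 73 members passed the test in either direction. The test was limma on log2(FPKM + 1) over all 12612 genes, with Benjamini-Hochberg adjusted p under 0.05 as the threshold, and it called 1.47% of all genes higher and 0.381% lower. An unadjusted p under 0.05 was reached by 4 members in the higher direction and 3 in the lower one (5.48% and 4.11% of 73), against 5.2% and 6.33% of all genes. With the mouse as a block in the fit, 1 member rose (Hspa8) and 1 fell (Hspa1a), which is 1.37% each way when all genes gave 3.4% and 1.9%. In every one of these counts the members' share was near or below that of all genes, except the share of members higher at an unadjusted p, which was 5.48% against 5.2%. The smallest adjusted p of any member was 0.211 without the block and 0.0166 with it. In such bulk samples fewer cells of a type and less RNA per cell cannot be told apart.

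The medians were small in every compartment. Over all genes the median log2 difference, R848 minus control, was -0.08, with 0.00 in mouse 4050 and -0.16 in mouse 4182. Cytosolic members had a median of 0.11 (0.12 in mouse 4050 and 0.04 in mouse 4182), ER members of 0.01 (0.11 and 0.01) and mitochondrial members of 0.01 (-0.09 and 0.17). Both R848 samples lay above both controls for 12 of 28 ER members and 8 of 26 cytosolic members, and for 20 of all 73, while 13.5% of all genes did so. Both lay below for 7 ER, 5 cytosolic and 16 of all 73 members, against 28.8% of all genes. No test was made of a group against other genes, since the members were chosen by name with earlier results known.

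**Figure D2:**
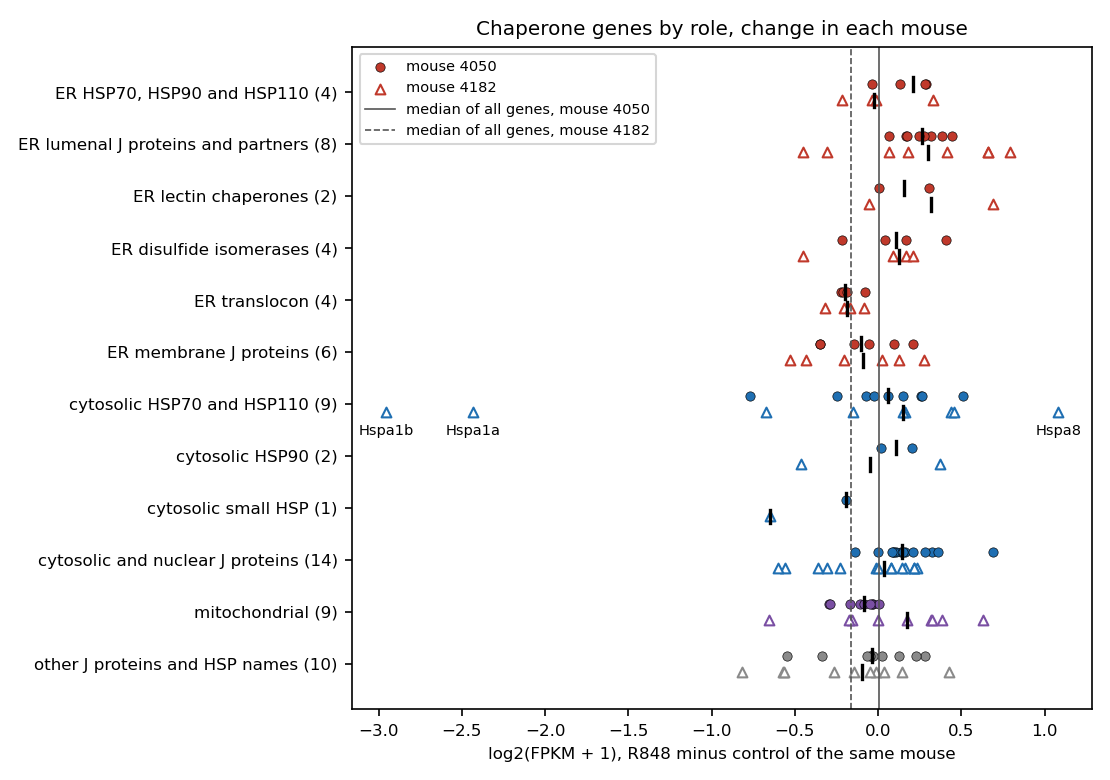
Difference in log2(FPKM + 1), R848 minus control of the same mouse, for each of the 73 members by role, with filled circles for mouse 4050, open triangles for mouse 4182 and black bars for the median of each role and mouse. Vertical lines give the median of all genes in each mouse. The 4 translocon genes lie below 0 in both mice, as do 38.8% of all genes, and Hspa1a, Hspa1b and Hspa8 lie farthest out.

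The cytosolic HSP70 genes held both extremes of the whole group. Hspa8, the constitutive HSP70 that is present in all cells (chr9:40800984-40810087, GRCm38), was the most abundant member, with 2765 and 2626 FPKM in the R848 samples of mice 4050 and 4182, against 1943 and 1239 FPKM in their controls. Both R848 values were above both controls, and the log2 difference was 0.80 (SE 0.23, limma adjusted p = 0.211), with 0.51 in mouse 4050 and 1.08 in mouse 4182. It passed with the mouse as a block (adjusted p = 0.0236), and also when the block was combined with scaling by the median log ratio (adjusted p = 0.0434). The difference was 0.47 without the control of mouse 4182 (adjusted p = 0.286 without the block) and 1.12 without the control of mouse 4050 (adjusted p = 0.00343). Over all settings its adjusted p ranged from 0.00343 to 0.687.

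The heat-inducible pair Hspa1a and Hspa1b stood lower with R848, and the control of mouse 4182 set most of the size. Hspa1a had 0.125 and 0.209 FPKM in the R848 samples of mice 4050 and 4182, against 0.919 and 5.53 FPKM in their controls. Hspa1b had 0.843 and 0.799 FPKM in the R848 samples, against 1.19 and 12.96 FPKM in the controls. Both genes were thus highest in the control of mouse 4182 and did not exceed 1.19 FPKM in the other 3 samples, and the groups did not overlap. That control alone lifted their means (1.70 and 3.95 FPKM) over the 1 FPKM limit. Their lower level with R848, and any call of it, therefore concerns genes admitted through the group where they were high. The log2 differences were -1.60 for each (SE 0.52 and 0.73, limma adjusted p = 0.263 and 0.478). In mice 4050 and 4182 they were -0.77 and -2.43 for Hspa1a, and -0.25 and -2.96 for Hspa1b. Hspa1a passed with the block (adjusted p = 0.0166) and Hspa1b did not (0.0696), and with median scaling beside the block Hspa1a did not pass either (0.0694). Without the control of mouse 4182 and with no block the differences were -0.72 for Hspa1a and -0.27 for Hspa1b (adjusted p = 0.485 and 1.00). Without the control of mouse 4050 they were -2.48 and -2.94, and both genes passed (adjusted p = 0.00111 and 3.21e-04). Over all settings the adjusted p ranged from 0.00111 to 0.723 for Hspa1a and from 3.21e-04 to 1.00 for Hspa1b. The longest annotated transcripts of the genes, which lie close together on chromosome 17 (34969190 to 34972156 and 34956436 to 34959238), matched at 93.6% of 2701 aligned bases, so reads assigned to each are uncertain.

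**Figure D3:**
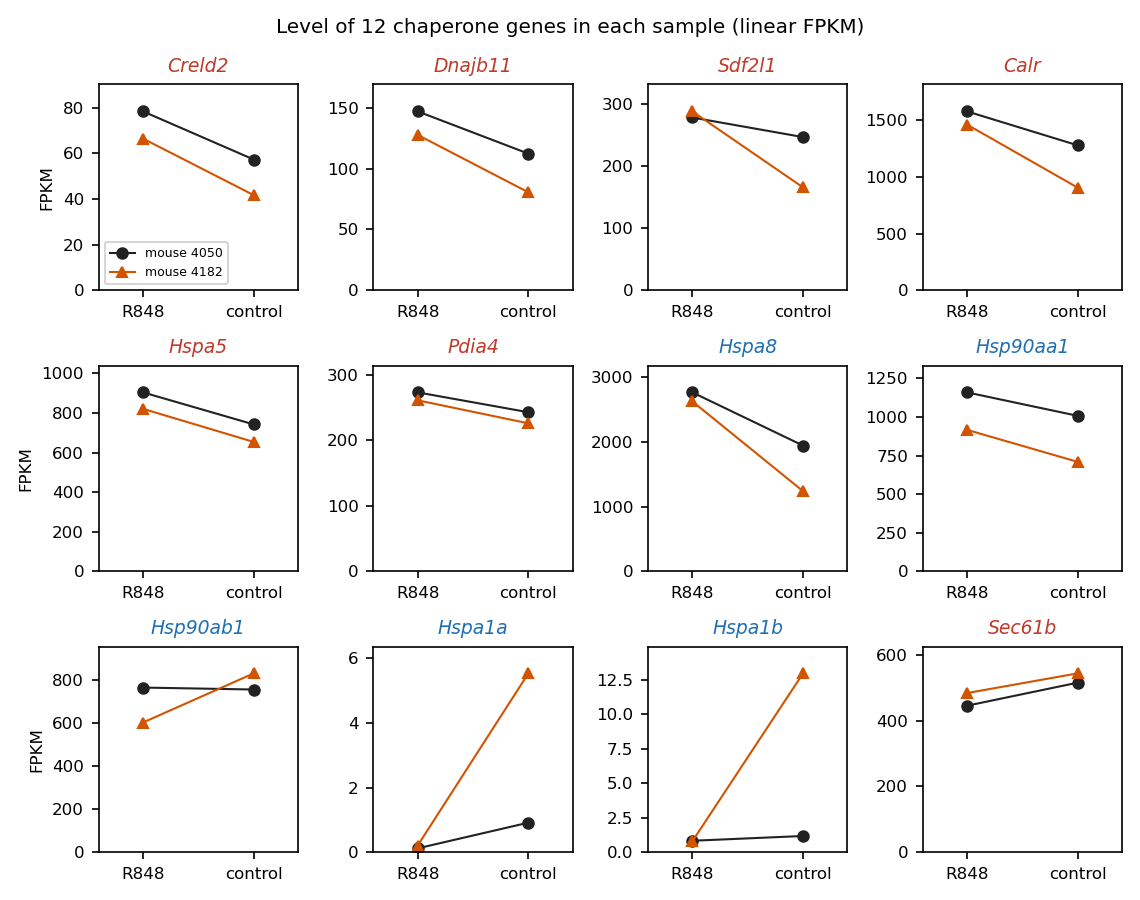
Linear FPKM of 12 chaperone genes in each sample, with R848 at left and control at right of each panel and lines that join the samples of a mouse; red names are ER genes and blue names cytosolic ones. Hspa8 is higher with R848 in both mice, and Hspa1a and Hspa1b stand at 5.53 and 12.96 FPKM in the control of mouse 4182 alone.

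The other cytosolic HSP70 and HSP110 genes did not pass in either fit. Hspa4 and Hsph1, HSP110 proteins that reload HSP70 with ATP, had log2 differences of 0.20 and 0.36 and were higher in both mice. Hspa4 had 192 and 168 FPKM with R848 against 160 and 151.5 FPKM in control, without overlap. Hsph1 had 17.7 and 12.95 FPKM with R848 and 14.6 and 9.19 FPKM in control, so its groups overlapped. Their relative Hspa4l, at 40.3 and 35.8 FPKM with R848 and 41.0 and 57.7 FPKM in control, had a difference of -0.35, and its R848 samples lay below both controls. Hspa2 (0.29) and Hspa14 (0.11) were higher in both mice and Hspa12b (-0.11) lower in both.

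The HSP90 genes of the cytosol differed from each other in direction. Hsp90aa1, the inducible form, had 1159 and 916 FPKM with R848 against 1007 and 709 FPKM in control for mice 4050 and 4182, which differ by 0.29 on the log2 scale (SE 0.22, limma adjusted p = 0.702). Hsp90ab1, the constitutive form, had 764 and 602 FPKM with R848 against 755 and 830 FPKM in control (-0.22, limma adjusted p = 0.714). For both genes the samples of the groups overlapped, and Hsp90ab1 changed sign between the mice. Their ratio was not tested.

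The 14 cytosolic and nuclear J proteins, which feed clients to HSP70 and set off its ATP hydrolysis, had log2 differences from -0.18 to 0.46 and 0 passed in either fit. Of these, 7 were higher and 1 (Dnajb2) lower in both mice, against 22.1% and 38.8% of all genes. Dnaja1 had 175.5 and 142 FPKM with R848 against 139.9 and 127 FPKM in control (0.24). Dnajb1, the main J partner of HSP70 after heat shock, had 31.5 and 29.0 FPKM with R848 against 28.5 and 27.4 FPKM in control (0.11). Dnajc8, a J protein tied to pre-mRNA splicing, had 174 and 162 FPKM with R848 against 157 and 153 FPKM in control (0.11). Dnajb5 had 1.70 and 1.09 FPKM with R848 against 0.669 and 0.776 FPKM in control (0.46), so it passed the 1 FPKM limit only through R848. In this role 5 of the 14 genes had R848 samples above both controls, against 13.5% of all genes. The 4 described here are among those 5. Dnajb5 was named for its large difference of the same sign in both mice, so it favours the count. The small heat shock protein Hspb6 was at 5.24 and 4.31 FPKM with R848 and 6.12 and 7.34 FPKM in control (-0.42), and it was the sole small heat shock gene among the cytosolic members.

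ER members that fold proteins in the lumen were more often higher than lower with R848, and none of them passed the test in either fit. Of these 18 genes, 11 were higher and 2 lower in both mice, with a median log2 difference of 0.14 (0.21 in mouse 4050 and 0.13 in mouse 4182). Over all genes 22.1% were higher and 38.8% lower in both mice. Their levels summed to 6165 and 5511 FPKM with R848 against 5275 and 4558 FPKM in control, so the sum was higher with R848 in each mouse. Calr, at 1576 and 1460 FPKM with R848 against 1277 and 904 FPKM in control, held a large part of that gap. This set and the translocon set joined here were grouped after values were seen, from roles listed earlier.

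The highest log2 differences among ER members were those of Creld2 and Dnajb11. Creld2, an ER protein induced by unfolded protein (chr15:88819646-88826683), had 78.4 and 66.5 FPKM with R848 against 57.3 and 41.8 FPKM in control, a log2 difference of 0.55 (SE 0.20). Its limma adjusted p was 0.328, and 0.0708 with the block. Dnajb11, a J protein that brings unfolded chains to Hspa5 (chr16:22857845-22879634), had 147 and 128 FPKM with R848 against 112 and 80.5 FPKM in control (0.52, SE 0.20, limma adjusted p = 0.354, and 0.0796 with the block). For both genes the R848 samples lay above the controls and mouse 4182 gave the larger difference. Sdf2l1, which works in a complex with Dnajb11, had 279 and 289 FPKM with R848 against 247 and 166 FPKM in control (0.48, limma adjusted p = 0.442). Without the control of mouse 4182 the differences were 0.33 for Creld2, 0.28 for Dnajb11 and 0.20 for Sdf2l1.

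Other partners of Hspa5 had smaller differences. Dnajc10, a J protein that reduces disulfide bonds, had 72.7 and 77.8 FPKM with R848 against 59.8 and 58.1 FPKM in control (0.35). Dnajc3, a J protein of the lumen, had 72.8 and 63.5 FPKM with R848 against 61.2 and 60.6 FPKM in control (0.16). Manf, a small ER protein that binds Hspa5, had 417 and 401 FPKM with R848 against 398 and 354 FPKM in control (0.12). These 3 were among the 6 of 8 lumenal J proteins and partners whose R848 samples were above both controls, against 13.5% of all genes. Dnajb9, which restrains the stress sensor Ire1 and is a standard target of XBP1, had 17.1 and 15.2 FPKM with R848 against 13.5 and 21.1 FPKM in control, so it differed in sign between the mice (-0.07). Dnajc1 (-0.07) also had opposite signs.

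Hspa5, the ER HSP70 (chr2:34771970-34777547), had 904 and 821 FPKM with R848 against 742 and 654 FPKM in control for mice 4050 and 4182. The R848 samples were above both controls, and the log2 difference was 0.31, nearly equal in the mice at 0.28 and 0.33 (SE 0.16, limma adjusted p = 0.544, and 0.371 with the block). Hsp90b1, the ER HSP90 that folds Toll-like receptors and integrins, had 788 and 571 FPKM with R848 against 646 and 665 FPKM in control, and its differences of 0.29 and -0.22 cancelled to 0.03. Hyou1, an exchange factor for Hspa5, had 121 and 100.6 FPKM with R848 against 110 and 101 FPKM in control (0.06), and both genes overlapped between the groups. Hspa13, an HSP70 of microsomes, had 38.7 and 39.3 FPKM with R848 against 39.7 and 40.3 FPKM in control (-0.03).

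The lectins, which hold glycoproteins while they fold, parted from each other. Calr (calreticulin, chr8:84841850-84846934) had 1576 and 1460 FPKM with R848 against 1277 and 904 FPKM in control (0.50, SE 0.20, limma adjusted p = 0.400, and 0.134 with the block). Without the control of mouse 4050 it passed (0.75, adjusted p = 0.0433 without the block, in a range of 0.0433 to 0.959 over all settings), and without the control of mouse 4182 its difference was 0.25. Canx (calnexin) had 504 and 426 FPKM with R848 against 503 and 443 FPKM in control, a difference of -0.03 that was positive, at 0.049, after median log ratio scaling.

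Of the disulfide isomerases, Pdia3, Pdia4 and Pdia6 were higher in both R848 samples than in both controls and Pdia5 was lower. Over all genes 13.5% lay above both controls and 28.8% below. Pdia3, the partner of calreticulin and of the class I peptide-loading complex, had 401.5 and 304 FPKM with R848 against 302 and 271 FPKM in control (0.29, limma adjusted p = 0.629). Pdia4 had 273 and 261 FPKM with R848 against 243 and 226 FPKM in control (0.19). Pdia6, another isomerase of the lumen, had 436 and 451 FPKM with R848 against 423 and 424.5 FPKM in control (0.06). Pdia5 was at 13.2 and 13.1 FPKM with R848 and at 15.5 and 18.3 FPKM in control (-0.34, limma adjusted p = 0.554).

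The ER channel and the membrane J proteins had a joint median of -0.14, and the gap to the lumenal genes was not tested. All 4 Sec61 genes were lower with R848 in both mice, with log2 differences from -0.27 to -0.13 and 0 that passed in either fit. Over all genes 38.8% were lower in both mice, and 28.8% had both R848 samples below both controls. Sec61b, the most abundant, had 445 and 483 FPKM with R848 against 515 and 543 FPKM in control (-0.19, limma adjusted p = 0.715). Sec61a1, the pore subunit, had 169 and 148 FPKM with R848 against 179 and 171 FPKM in control (-0.14). The groups did not overlap for either subunit. Sec61a2, a second form of the pore, had 15.9 and 14.2 FPKM with R848 against 18.7 and 17.9 FPKM in control (-0.27). Sec61g, the smallest subunit, had 22.65 and 32.05 FPKM with R848 against 25.9 and 34.0 FPKM in control (-0.13), and it was the 1 translocon gene whose groups overlapped. The translocon median was -0.17, and the median over all genes was -0.08. After quantile normalization they were -0.20 and -0.0365, and after median log ratio scaling -0.092 and -0.0038.

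Among the 6 membrane J proteins, Dnajb12, which helps to dispose of misfolded membrane proteins, had 15.2 and 14.5 FPKM with R848 against 19.6 and 21.4 FPKM in control (-0.44, SE 0.17, limma adjusted p = 0.370). Its relative Dnajb14 had 5.78 and 5.37 FPKM with R848 against 6.034 and 7.597 FPKM in control (-0.24). Dnajc14 had 29.1 and 23.6 FPKM with R848 against 27.2 and 27.3 FPKM in control (-0.06), with overlap. None of the others passed, with Dnajc16 at -0.01, Dnajc18 at 0.12 and Dnajc25 at -0.04. Dnajb12 and Dnajb14 were lower and Dnajc18 higher in both mice (all genes 38.8% and 22.1%).

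Mitochondrial members overlapped between the groups for 7 of 9 genes, and 0 lay above and 2 below both controls (all genes 13.5% and 28.8%). Hspd1 and Hspe1, the mitochondrial chaperonin and its cap, had 299 and 252 FPKM and 216 and 228 FPKM with R848, against 298 and 193 FPKM and 223 and 181 FPKM in control, for mice 4050 and 4182. Their differences were 0.19 and 0.14, and neither kept its sign without the control of mouse 4182. The genes sit head to head on chromosome 1 and their annotated ends overlap, so some reads could belong to either. Hspa9, the HSP70 of protein import, had 208 and 182 FPKM with R848 against 233 and 205 FPKM in control (-0.17). Dnajc28 had 3.87 and 3.40 FPKM with R848 against 4.94 and 5.93 FPKM in control (-0.47), and Dnajc30 (-0.12) was also lower in both R848 samples.

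The 10 members without one of these compartments ranged from -0.68 to 0.20 and 0 passed in either fit. The lowest was Hspe1-ps5, a pseudogene of Hspe1, with 2.38 and 2.14 FPKM with R848 against 3.92 and 4.54 FPKM in control (limma adjusted p = 0.247). Its transcript matched that of Hspe1 at 78.55% of 289 aligned bases, and whether reads are shared with this parent gene was not tested. Dnajc6 (auxilin, which uncoats clathrin vesicles) was at -0.32 and Dnajc27 at 0.20. Dnajc13 (0.13), Hspbap1 (0.09), Dnajc12 (0.05), Dnajc5 (-0.10), Dnajc24 (-0.12), Dnajc4 (-0.15) and Hspb11 (-0.22) lay between them.

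Among the abundant members more were higher than lower. Of the 23 members with a mean of at least 100 FPKM, 14 were higher and 3 lower in both mice, with a median log2 difference of 0.14. Among all 1258 genes at that level 31.8% were higher and 34.2% lower in both mice, and the median was -0.01. The 50 members under 100 FPKM had a median of -0.06, with 12 higher and 17 lower in both mice. Of all genes under that level 21.0% were higher and 39.3% lower in both mice. Members together made up 1.47% and 1.31% of the linear total in the R848 samples of mice 4050 and 4182, against 1.28% and 1.08% in their controls. Most of that gain came from 2 genes. Hspa8 had 2765 and 2626 FPKM with R848 against 1943 and 1239 FPKM in control. Calr had 1576 and 1460 FPKM with R848 against 1277 and 904 FPKM in control. The limit of 100 FPKM was chosen after the values were seen.

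**Figure D4:**
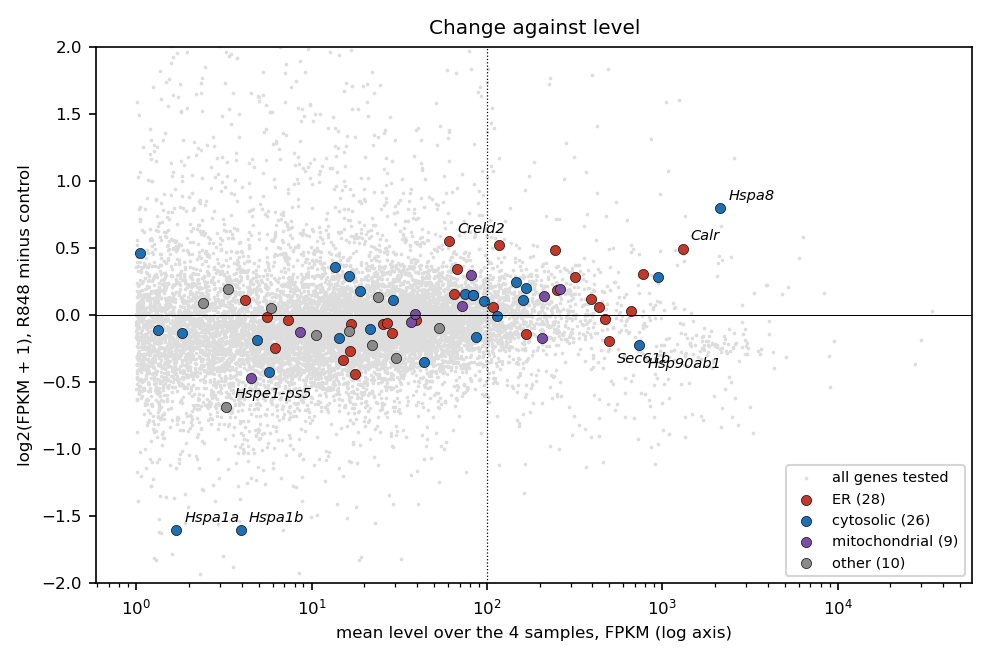
Difference in log2(FPKM + 1), R848 minus control, against the mean level over the 4 samples (FPKM, log axis) for 73 members by compartment and for all genes tested in grey; genes beyond -2 or 2 are not drawn and the dotted line is at 100 FPKM. The abundant members sit mostly above 0, up to Hspa8 at 0.80.

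Across the 73 members the difference in mouse 4050 and that in mouse 4182 had a Pearson r of 0.538 and a Spearman rho of 0.440. Without Hspa1a and Hspa1b these were 0.445 and 0.397, and across all genes they were 0.559 and 0.385. These are correlations across genes, which share the 4 libraries. By sign, 26 members were higher in both mice, 20 lower in both and 27 opposite. The first 2 counts are 35.6% and 27.4% of members, against 22.1% and 38.8% of all genes.

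**Figure D5:**
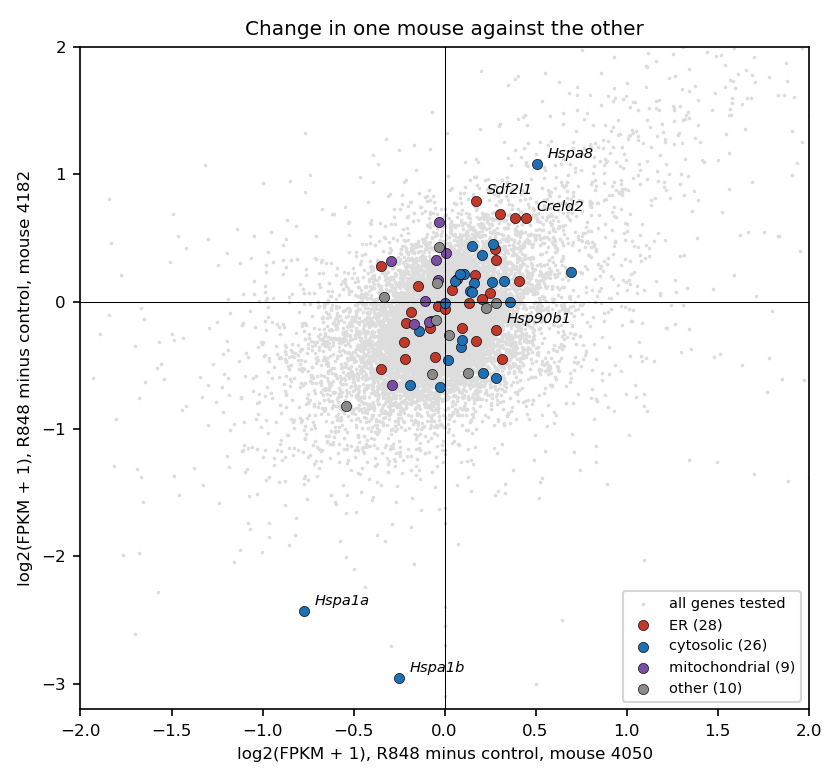
Difference in log2(FPKM + 1), R848 minus control, in mouse 4182 (vertical) against mouse 4050 (horizontal) for 73 members by compartment and for all genes tested in grey; genes beyond the axes are not drawn. Most members lie near 0, with Hspa8 high in both mice and Hspa1a and Hspa1b low mainly in mouse 4182.

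Genes that sense folding stress and work beside the chaperones were read from 8 lists of 153 tested genes that are not members. Over these lists 0 genes passed in the fit without a block, while an unadjusted p under 0.05 was reached by 4 that were higher and 5 that were lower (2.61% and 3.27%, below the 5.2% and 6.33% of all genes). With the block 2 rose and 2 fell, where all genes gave 3.4% and 1.9%. Hmox1, a heme oxygenase of oxidative stress, rose with the block to 82.0 and 69.2 FPKM in R848 samples, against 45.1 and 42.7 FPKM in controls (0.76, adjusted p = 0.0116, 0.0159 with median scaling beside the block and 0.0853 without a block). Htra2, a mitochondrial protease, also rose with the block (0.62, adjusted p = 0.0417), but did not pass with median scaling beside it (0.0710) or without a block (0.184). Trib3, a pseudokinase induced by stress in the ER, fell with the block (-0.89, adjusted p = 0.0282, 0.0489 with median scaling beside it and 0.106 without a block).

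Most sensors and factors of the unfolded protein response had negative differences. Of 11 tested, 8 were lower and 1 higher in both mice, with a median log2 difference of -0.29. Over all genes 38.8% were lower and 22.1% higher in both mice, and the median was -0.08. Ern1, which encodes the sensor IRE1, fell with the block to 19.7 and 25.2 FPKM in R848 samples, against 29.0 and 45.7 FPKM in controls (-0.68, limma adjusted p = 0.0417, 0.0755 with median scaling beside the block and 0.328 without a block). Ddit3, the stress factor CHOP, had 25.3 and 19.0 FPKM with R848 against 31.1 and 43.5 FPKM in control (-0.72, limma adjusted p = 0.244, and 0.0798 with the block). Xbp1 had 599 and 543 FPKM with R848 against 515 and 667 FPKM in control (-0.04). This gene total does not separate spliced from unspliced Xbp1.

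The other lists held no call in either fit and had medians near that of all genes. They were ER folding and quality control (28 genes, median -0.03), degradation from the ER (20, 0.00), signal peptide entry and glycosylation (28, -0.06), HSF factors with co-chaperones (25, 0.05) and TRiC with prefoldin (14, 0.00). Their smallest p-values belonged to Ero1l (-0.62) and Txndc5 (-0.23), Derl3 (0.85) and Erlec1 (-0.20), Rpn2 (-0.17) and Srp68 (-0.21), Fkbp5 (-0.36) and Ahsa1 (0.37), and Cct6a (0.20) and Cct3 (0.23), which are log2 differences and did not pass. The list that holds Htra2 had a median of -0.01 over 16 mitochondrial partners, and the list that holds Hmox1 and Trib3 one of 0.00 over 12 stress genes.

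Markers of antibody-secreting cells, whose ER is large, rose beside these values. Of 11 tested plasma cell markers 6 rose in both fits (Igj, Mzb1, Igkc, Iglc2, Ighm and Pou2af1). Over all genes 1.47% rose without the block and 3.4% with it. All 12 listed genes summed to 1864 and 1540 FPKM in the R848 samples of mice 4050 and 4182, against 566 and 716 FPKM in controls, where Xbp1 was most of the sum. Xbp1 and Derl3 also stand in the folding lists. Sdc1 and Prdm1 were at 0.59 and 0.86 on the log2 scale and Irf4 at -0.71 without passing, and Tnfrsf17 was 0 in 3 samples and 0.0474 FPKM in the R848 sample of mouse 4182. Ms4a1 and Cd79a, among the B cell genes, also rose, and Cd79b rose with the block. The part of these cells in the chaperone values was not tested.

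Of 6 tested T cell markers 2 rose (Cd3g and Trac), and all 10 listed genes summed to 16.4 and 21.2 FPKM in R848 samples against 11.1 and 11.1 FPKM in controls. Of 4 tested NK cell markers 0 passed, and all 10 listed genes summed to 243 and 246 FPKM with R848 against 152 and 260 FPKM in control. Erythroid genes stayed below 10 FPKM in sum, with Slc4a1 at 0 throughout, and of the fibroblast and endothelial genes 8 of 10 were below 1 FPKM. Markers of the labelled myeloid leukaemia were high, with 11400 to 12750 FPKM in sum over R848 samples and 10490 to 11370 FPKM over controls, and Mpo between 1052 and 1533 FPKM. In that list 0 of 15 passed without the block, while with it Csf1r rose and Cd34 fell, 1 gene each way. For these lists too, the shares of all genes that rose and fell were 1.47% and 0.381% without the block. With the block they were 3.4% and 1.9%. The leukocyte antigen gene Ptprc was low at 1.28 and 2.31 FPKM with R848 and 1.59 and 2.69 FPKM in control.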

How the data were processed

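The authors deposited 1 table of log2 values, named log2 FPKM, for 4 RNA-seq samples. After conversion to linear FPKM with an offset of 1, each sample totalled between 950530 and 962001, a near constant sum that TPM also has; the name FPKM is kept. Per the submitters' processing notes kallisto and mm10 were used. Versions, annotation and strand setting are not given in the sources used here, and the labels name both ribosomal depletion and a stranded mRNA kit. The values hold no counts, so depth is unknown.

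From 28192 rows, 27 with date-like names and 91 repeats of a symbol were dropped, in favour of the most abundant row (Hspa14 had such a repeat). The 12612 genes averaging 1 FPKM or more entered limma 3.58.1 (R 4.3.3), fitted to log2(FPKM + 1) with a trended prior, and two-sided p-values were adjusted by Benjamini-Hochberg over all of them. Fold changes on this scale understate low genes. Residual degrees of freedom were 2, to which the prior added 5.27. With the block they were 1 and 11.35. Its p-values thus lean mostly on the spread pooled over genes, and less on how well the mice agree for a gene. All p-values measure only the spread between these samples.

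The main fit has no block. Same-numbered samples come from 1 mouse, per the labels, so the numbers pair them, and their deviations from group means correlated at 0.289 across genes. A second fit added the mouse as a block and is given where it changes a call. Alternatives were a pseudocount of 0.1, no filter, a limit of 5 FPKM, scaling by quantiles or by the median log ratio, the block, and leaving out each sample. The block with median scaling was added after seeing the data.

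Members and lists were chosen with earlier results of these data known. By rule, values in every sample were given for members called in a fit with or without the block and for 28 set genes. They were also given for the 2 highest members of each role. The 2 most different members of each role were added, taken only among those with the same sign in both mice. The members without a compartment were left out of both role rules. Further members were named after their values were seen. List genes were those called in either fit, or else the 2 with the smallest p, and Ddit3 and Xbp1 were added after seeing values. Of 233 list symbols 5 matched under an older symbol and 2 did not match. Coordinates are from GENCODE M21 (GRCm38) and promoter windows from RefSeq (GRCm38.p6), with alignments by Biopython 1.88. Plots were made in Python 3.11.15 (matplotlib 3.10.9). The summed level and counts of the B cell marker list are not reported here.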

Additional observations from a re-analysis of the deposited data

How the results depend on the processing

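Without the block, 0 members passed under the other pseudocount, both filters, both rescalings and when any sample but 1 was left out. The exception was leaving out the control of mouse 4050, and over the samples left out the counts went from 0 to 2 higher and from 0 to 2 lower. A lone control is then assumed to vary like the R848 samples. With the mouse as a block 1 member was higher and 1 lower, and with median scaling beside it 1 and 0. For the other folding lists the block gave 2 higher and 2 lower, the block with scaling 1 and 1, and leaving out samples 0 to 1 each way. Over all genes the test called 185 higher and 48 lower, 429 and 240 with the block, 404 and 145 with the block and median scaling, 76 and 12 after quantile normalization, 91 and 15 after median scaling, 0 and 0 with no filter, and 46 to 259 and 10 to 136 when a sample was left out. The block changed no other call among the members.

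Medians moved with the scaling. After median log ratio scaling, with or without the block, they were 0.18 for cytosolic members, 0.21 for lumenal folding members, -0.092 for the translocon and 0.21 for members of at least 100 FPKM, and after quantile normalization the last pair stood at -0.20 and 0.10. Leaving out samples gave 0.0085 to 0.20 for cytosolic members, -0.016 to 0.094 for ER members, 0.089 to 0.24 for lumenal folding members, -0.23 to -0.16 for the translocon and 0.053 to 0.24 for members of at least 100 FPKM. The ER median was also -0.01 with the filter at 5 FPKM.

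Of 39 named members 30 kept their sign under every alternative. Some of them were named for a large difference of the same sign in both mice, which favours this count. Median scaling turned Canx to 0.049, Dnajb9 to 0.0087, Dnajc14 to 0.019 and Hspa13 to 0.039, with or without the block. Over the samples left out Canx ranged from -0.15 to 0.095, Dnajb9 from -0.37 to 0.24, Dnajc14 from -0.20 to 0.093, Hsp90b1 from -0.20 to 0.26, Hspd1 from -0.12 to 0.51, Hspe1 from -0.0071 to 0.29, Hyou1 from -0.072 to 0.19 and Sec61g from -0.38 to 0.11. None of these differences passed. Median scaling moved every gene by the same amount, and the cause of the other changes of sign was not tested.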
